A study of Mus musculus with 4 samples.

Results

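The interleukin-6 (IL-6) family receptors and the JAK-STAT3 axis behind them were examined as 10 genes, taken as the rows of the deposited gene table whose symbol was Osmr, Il6st, Lifr, Il6ra, Jak1, Jak2, Stat3, Socs3, Ptpn11 or Pim1, which is 10 of 16051 genes. The cells were 3T3-L1, a mouse line of the NIH SWISS strain that the labels call murine adipocytes from embryo tissue and that was differentiated to adipocytes in culture. Differentiated cells received DMSO, the solvent (named RNC in the labels), or 100 μM risperidone, an antipsychotic drug (named RIS), for 48 h, with 2 mRNA sequencing libraries per treatment. RNA from 3 cultures was pooled for each library, so replicates here are pools, and every SD, SE and p-value reflects how pools varied and not how individual cultures did. The labels call the control untreated and describe an extraction from retina, while the study's methods name DMSO and no retina.

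Cytokines of the IL-6 family signal through the shared receptor chain gp130, which pairs with a second chain or an alpha receptor that sets which ligand is bound. The chains carry the Janus kinases, which phosphorylate STAT3, and STAT3 then enters the nucleus and induces genes that include its own inhibitor Socs3 and the serine/threonine kinase Pim1. In fat cells this route carries signals of IL-6, oncostatin M and leukaemia inhibitory factor, and oncostatin M and leukaemia inhibitory factor are known to act on adipocyte differentiation.

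The promoter sequences of Pim1 and Socs3 are shown because both genes are known STAT3 targets and their transcript levels lay on opposite sides of the control. The sequences are RefSeq windows on GRCm38.p6, in which 10 of 10 genes were matched to 12 windows of 250 bases before and 50 bases after a start, and only bases outside annotated exons are printed. Capitals mark TTCNNNGAA, the palindrome that STAT proteins are known to bind, which reads the same on both strands.
Pim1, chr17:29490535-29490752, plus strand: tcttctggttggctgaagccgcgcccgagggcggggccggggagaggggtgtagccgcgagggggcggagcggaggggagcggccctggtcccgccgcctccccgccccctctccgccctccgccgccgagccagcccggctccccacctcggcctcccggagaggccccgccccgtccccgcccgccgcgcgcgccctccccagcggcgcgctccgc
Socs3, chr11:117969452-117969616, minus strand: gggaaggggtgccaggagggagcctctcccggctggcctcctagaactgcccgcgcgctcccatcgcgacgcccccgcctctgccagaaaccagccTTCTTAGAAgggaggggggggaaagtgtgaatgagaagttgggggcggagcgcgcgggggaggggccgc
The Socs3 window held the palindrome once, 154 bases upstream of the start in that table, and neither of the 2 Pim1 windows held it. The annotated span of Socs3, whose longest transcripts start further upstream, reaches to 117970336, so the printed stretch lies inside that span. The letters occurred in 1 of the 12 windows (8.33%), against 8.30% of all 32851 windows, and so in 1 of the 10 genes (10%), against 7.98% of the 8329 tested genes with a window, and their absence says only that they are not in these bases. A G+C content of 83.0% was found in the printed Pim1 stretch and of 70.3% in that of Socs3.

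The 4 libraries held 15883712 to 16374119 counts. The level used is FPKM, fragments per kilobase of transcript scaled to library size, so genes can be compared per length. Of 10243 genes whose mean over the libraries reached 1 FPKM, edgeR's quasi-likelihood test, with a Benjamini-Hochberg adjusted p under 0.05 as the threshold for a call, called 3287 higher (32.1%) and 3303 lower (32.2%) with risperidone. The median log2 fold change of all tested genes was 0.00, and 49.9% of the calls were higher. That share was 22.5% on the TPM scale (a length-scaled level set to the same sum in each library), where the median of all genes was -0.22. Summed FPKM of 8 adipocyte markers was 378 and 432 in the DMSO libraries and 265 and 277 in the risperidone libraries, but Adipoq, Plin1, Cidec and Cebpa did not pass 0.51 FPKM in any library, against the label of adipocytes. Of the 4 tested markers Fabp4 and Lpl fell, and Pparg and Cd36 were not called. The sum of 7 preadipocyte or fibroblast markers was 566 and 562 with DMSO and 930 and 900 with risperidone, but most of the gap was Col1a1 (a mean of 374 against 694 FPKM). Of the 6 tested genes of that list 4 rose, while Col3a1 fell from a mean of 107 to 51.5 FPKM and Pdgfra was not called. Among those that rose, Ly6a had 1.93 and 1.84 FPKM with DMSO and 2.49 and 5.58 with risperidone. Its log2 fold change of 1.20 was 0.53 without risperidone library 2. Of 6 retina markers, Gnat1 and Rcvrn had no row and the rest summed to at most 0.70 FPKM. A list of 5 macrophage markers summed to 2.68 and 3.55 FPKM with DMSO and 6.38 and 6.83 with risperidone, nearly all of it Cd68, which rose by 1.19 on the log2 scale, while Ptprc did not pass 0.04 FPKM and Adgre1 had no row. The part of these marker sums in the results was not tested. Risperidone library 2 stood apart, with 170 FPKM over 6 kidney markers against 1.56 to 2.44 in the other libraries and 10.9 FPKM over 5 hepatocyte markers against at most 0.17. Of the latter 9.19 FPKM was Cyp2e1, while Alb had 0.16 FPKM and Apoa1 was at 0. Values without that library are therefore given for each of the 10 genes.

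The 10 genes were chosen by name with their counts and FPKM in this same contrast known, so the levels and fold changes are values they were selected on and are given as a description with no test. In short, Pim1 was about 8-fold higher with risperidone while the receptors Osmr, Lifr and Il6ra, the kinase Jak1, Stat3, Socs3 and Ptpn11 were lower, Il6st was slightly higher and Jak2 stayed near its control level. In the fit across all genes, 2 of the 10 were called higher, 7 lower and 1 neither way, beside 64.3% of all tested genes called in either direction. Their median log2 fold change was -0.38. FPKM did not overlap between treatments for any of the 10, with 2 above and 8 below DMSO. That compares with 82.2% of all tested genes without overlap, 32.4% above and 49.8% below. In bulk RNA, fewer cells with a transcript and less of it per cell cannot be told apart.

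**Figure D1:**
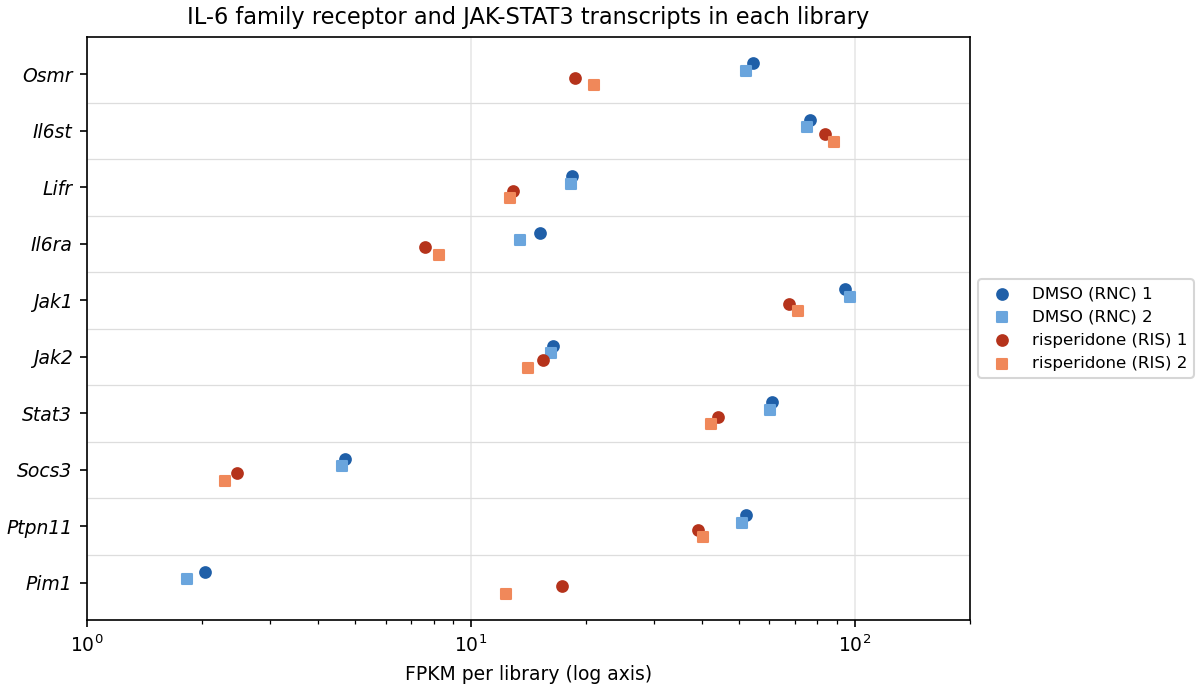
FPKM of each gene (rows, log axis) in the 2 DMSO (RNC, blue) and the 2 risperidone (RIS, red) libraries, 1 point per library. Pim1 moves from about 2 FPKM with DMSO to 12.38 and 17.24 with risperidone, while Osmr moves from above 52 to below 21.

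Of the receptors, Osmr, the oncostatin M receptor chain (gene 18414, chromosome 15, 6813568 to 6874968, GRCm38.p6), had 54.31 and 52.16 FPKM with DMSO and 18.68 and 20.95 with risperidone. Both risperidone libraries lay far below both controls, at 19.8 ± 1.61 against 53.2 ± 1.52 FPKM (mean ± SD, n = 2). The fitted log2 fold change of Osmr was -1.33 (SE 0.0590), a 2.51-fold lower level, and -1.41 without risperidone library 2. It was the lowest fold change of the 10 genes and the 172nd from the lowest of all 10243.

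Il6st, which encodes gp130 (gene 16195, chromosome 13, 112464070 to 112506860), had 76.71 and 75.13 FPKM with DMSO and 83.54 and 88.37 with risperidone. The libraries did not overlap, and the gap was small beside that of Osmr. Its log2 fold change was 0.27 (SE 0.0487), a 1.21-fold higher level, and 0.04 on the TPM scale, where it was not called. The shared chain was thus the 1 receptor gene of this group that was not lower with risperidone.

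Lifr, the leukaemia inhibitory factor receptor, lies on the same chromosome as Osmr (gene 16880, chromosome 15, 7090610 to 7197489) and had 18.35 and 18.26 FPKM with DMSO and 12.87 and 12.68 with risperidone. The control libraries nearly coincided, and so did the treated ones. Its log2 fold change was -0.57 (SE 0.0580) from the counts. The transcript length that count and FPKM imply for Lifr was 5.12 and 5.14 kb with DMSO and 4.64 and 4.67 kb with risperidone, a shift that only 1.82% of 7535 genes with at least 5 FPKM in every library matched or passed. The other 9 genes shifted by at most 0.03 on the log2 scale.

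Il6ra, the IL-6 alpha receptor (gene 16194, chromosome 3, 89869324 to 89913196), had 15.17 and 13.42 FPKM with DMSO and 7.62 and 8.29 with risperidone. Its controls differed more from each other than those of Lifr, but neither came near the treated libraries. The log2 fold change was -0.75 (SE 0.0746), and -0.81 without risperidone library 2. As a share of Il6st, and so per gp130 transcript, Osmr was 70.8% and 69.4% with DMSO and 22.4% and 23.7% with risperidone. The same share for Lifr was 23.9% and 24.3% against 15.4% and 14.3%, and for Il6ra 19.8% and 17.9% against 9.12% and 9.38%. The 3 ligand-setting chains were each lower relative to gp130, with the widest gap for Osmr.

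The kinases differed from each other. Jak1, the Janus kinase that is known to be needed for gp130 signalling (gene 16451, chromosome 4, 101151974 to 101265282), had 94.46 and 97.45 FPKM with DMSO and 67.67 and 71.34 with risperidone. It was the highest of the 10 genes with DMSO and came after Il6st with risperidone. Its log2 fold change was -0.35 (SE 0.0480).

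Jak2, which also serves growth hormone and leptin receptors (gene 16452, chromosome 19, 29251803 to 29313095), had 16.38 and 16.20 FPKM with DMSO and 15.42 and 14.06 with risperidone. The treated libraries lay just under the controls and apart from each other. The log2 fold change was -0.026 (SE 0.0641) and turned to 0.037 without risperidone library 2 and to 0.067 with an offset for gene length. It was -0.28 on the TPM scale, where Jak2 was called lower, and -0.137 with limma on log2(FPKM + 1), so no direction is given for Jak2. Relative to Jak1, Jak2 stood at 17.3% and 16.6% with DMSO and at 22.8% and 19.7% with risperidone.

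Stat3, the transcription factor that the receptors activate (gene 20848, chromosome 11, 100886806 to 100939594), had 60.91 and 60.33 FPKM with DMSO and 44.05 and 42.28 with risperidone. Both treated libraries were lower by about the same amount. Its log2 fold change was -0.40 (SE 0.0473), a 1.32-fold lower level.

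Socs3, a target of STAT3 that blocks the receptor and kinase (gene 12702, chromosome 11, 117966079 to 117970336), had 4.69 and 4.63 FPKM with DMSO and 2.46 and 2.29 with risperidone, from 200, 191, 104 and 96 counts. The controls and the treated libraries were each close together, at 4.66 ± 0.0424 and 2.38 ± 0.120 FPKM. The log2 fold change was -0.87 (SE 0.139), and Socs3 as a share of Stat3 was 7.70% and 7.67% with DMSO against 5.58% and 5.42%. Ptpn11, which encodes the phosphatase SHP2 that binds gp130 and links it to the MAP kinase route (gene 19247, chromosome 5, 121130533 to 121191397), had 52.19 and 51.02 FPKM with DMSO and 39.01 and 40.21 with risperidone. Its log2 fold change was -0.29 (SE 0.0457), with both treated libraries below both controls. Without risperidone library 2, the log2 fold change was 0.24 for Il6st, -0.55 for Lifr, -0.39 for Jak1, -0.36 for Stat3, -0.82 for Socs3 and -0.30 for Ptpn11, so that each kept its sign.

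**Figure D2:**
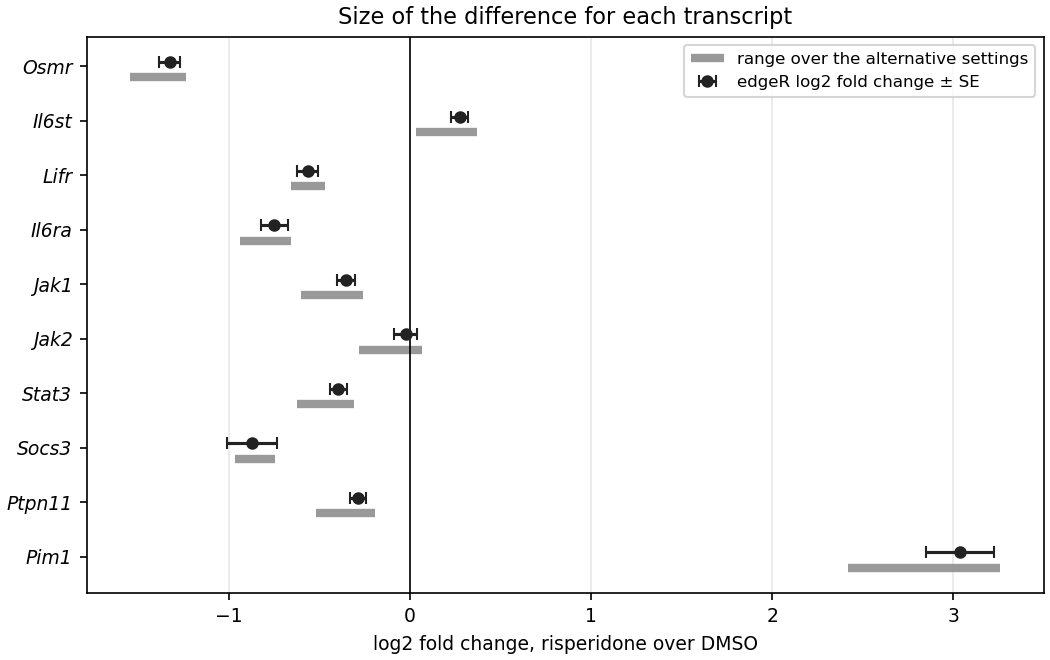
log2 fold change (risperidone against DMSO, horizontal axis) of each of the 10 genes from the edgeR fit, with SE bars, and below each a grey bar for the range over the alternative settings. Pim1 lies at 3.04, Osmr at -1.33 and Jak2 at -0.03, and the other genes fall between -0.87 and 0.27.

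Pim1 had the highest fold change of the 10 genes. This kinase promotes cell survival and growth (gene 18712, chromosome 17, 29490785 to 29496111) and had 2.03 and 1.82 FPKM with DMSO and 17.24 and 12.38 with risperidone, from 54, 47, 456 and 323 counts. The 2 controls were alike, while the treated libraries were both far higher and differed from each other. Exact Poisson 95% intervals, which cover counting error only, were 40.6 to 70.5 and 34.5 to 62.5 counts for DMSO and 415 to 500 and 289 to 360 for risperidone. The log2 fold change was 3.04 (SE 0.186), an 8.21-fold higher level, which ranked 26th from the highest of 10243 genes and was 3.26 without risperidone library 2. Among all alternatives run it lay between 2.42 and 3.26.

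Set against its STAT3 inputs, Pim1 was 3.33% and 3.02% of the Stat3 level with DMSO and 39.1% and 29.3% with risperidone. Relative to Osmr, it was 3.74% and 3.49% against 92.3% and 59.1%. Relative to Il6st, it was 2.65% and 2.42% against 20.6% and 14.0%. In each case the treated shares were well above the controls, and risperidone library 1 was above library 2. Against Socs3, the other STAT3 target among the 10 genes, Pim1 was 43.3% and 39.3% with DMSO and 701% and 541% with risperidone. With DMSO, Pim1 was the lowest of the 10 genes by FPKM and Socs3 the next. With risperidone, Pim1 reached a range (12.38 to 17.24 FPKM) that covered those of Jak2 and Lifr, and these neighbours do not differ from it beyond their spread.

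**Figure D3:**
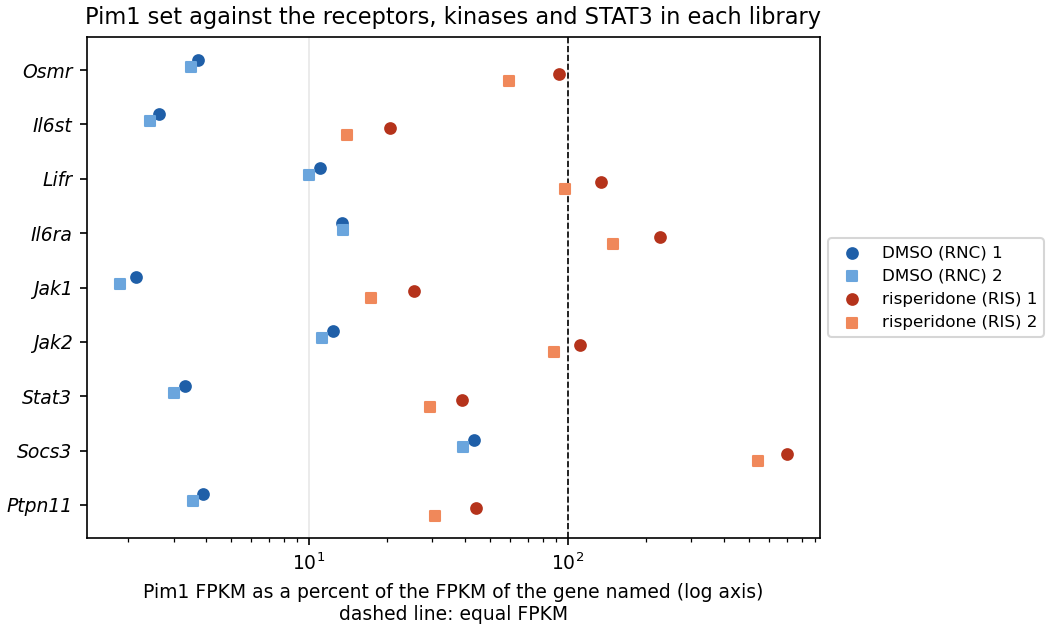
Pim1 FPKM as a percent of the FPKM of each of the other 9 genes (rows, log axis), with 1 point per library (blue for DMSO, red for risperidone) and a dashed line where both genes have the same FPKM. In every row the risperidone points lie to the right of the DMSO points, for Stat3 at 39.1% and 29.3% against 3.33% and 3.02%.

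Over the 8052 genes that averaged 5 FPKM or more, the patterns nearest to that of Pim1 across the 4 libraries, by Euclidean distance between centred log2 values, included those of Rassf2 (0.294) and Cyr61 (0.595). Rassf2, a RAS-association domain gene, had 3.03 and 2.84 FPKM with DMSO and 21.69 and 20.02 with risperidone, without the gap between treated libraries that Pim1 had. Those nearest to Osmr were Abhd16a (0.0415), Gm46911 (0.0558) and 2700081O15Rik (0.0697). Abhd16a, a phospholipid hydrolase, had 24.09 and 23.09 FPKM with DMSO and 7.97 and 9.27 with risperidone.

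The rest of the pathway was taken as 91 further genes in 8 lists, of which 85 had a row and 65 were tested. Of these, 13 rose, 32 fell and 20 were not called, with a median log2 fold change of -0.22 against 0.00 for all tested genes and beside 32.1% of all tested genes called higher and 32.2% called lower.

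**Figure D4:**
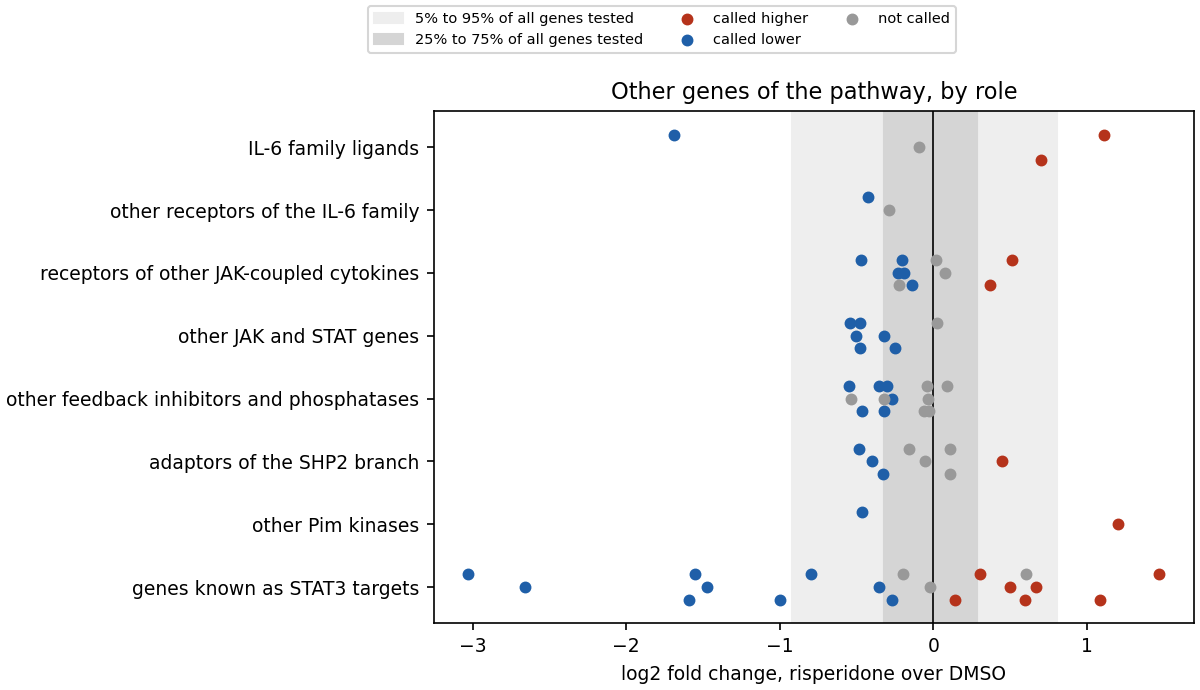
log2 fold change (risperidone against DMSO, horizontal axis) of the tested genes of the 8 pathway lists (rows), 1 point per gene, red where edgeR called it higher, blue where lower and grey where not called. Shading marks the central quartiles (dark) and the 5% to 95% range (light, -0.92 to 0.81) of all tested genes. No gene of the JAK and STAT list or of the inhibitor list was called higher, and 6 were called lower in each.

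Few ligand genes passed the filter on level. Of 13 ligand genes, 4 were tested, of which 2 rose and 1 fell, with a median of 0.30. Il6 itself had 4 and 6 counts with DMSO and 5 and 5 with risperidone, and Lif had 9 and 4 against 0 and 2. A count of 0, as for Lif in risperidone library 1, allows up to 3 counts, or 0.183 to 0.189 CPM (counts scaled to library size). Neither gene passed the filter, and no difference in Il6 was detectable with 4 to 6 counts per library. Osm, the ligand of Osmr, was not analysed here. Ctf1, cardiotrophin 1, a ligand of gp130 and Lifr, had 3.08 and 3.48 FPKM with DMSO and 0.96 and 0.98 with risperidone, a log2 fold change of -1.69 (SE 0.249, edgeR adjusted p = 0.000140). Clcf1, a ligand of the ciliary neurotrophic factor receptor, rose from 8.03 and 8.91 to 13.55 and 12.15 FPKM (0.70, edgeR adjusted p = 0.000123). Cntf rested on 7, 21, 32 and 25 counts, with a log2 fold change of 1.11 (edgeR adjusted p = 0.0449) that fell to 0.51 without DMSO library 1 (edgeR adjusted p = 0.323) and 0.93 without risperidone library 1 (edgeR adjusted p = 0.137), and was 2.12 without DMSO library 2. The Cntf call was lost in 9 of the 14 alternatives that gave it a value, DESeq2 and limma included, with adjusted p from 0.0018 to 0.323 over all of them. With DMSO library 1 or risperidone library 1 left out, 1 ligand gene was called higher.

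Among 7 other IL-6 family receptors, 2 were tested, of which 1 fell and none rose. Without risperidone library 2, and with limma, 2 were called lower. Il11ra1, the IL-11 receptor, had 49.89 and 50.61 FPKM with DMSO and 34.20 and 35.81 with risperidone (log2 fold change -0.43, edgeR adjusted p = 0.000106), although reads of the near-identical Il11ra2 could be split between both genes. Of 17 receptors of other JAK-coupled cytokines, 10 were tested, of which 2 rose and 5 fell, with a median of -0.16. Ghr, the growth hormone receptor, had 3376 and 3328 counts with DMSO and 2233 and 2305 with risperidone (log2 fold change -0.47, edgeR adjusted p = 7.34e-06). Its FPKM was 68.05 and 69.70 against 56.75 and 58.72, a smaller difference (-0.25 with limma on log2(FPKM + 1)). Il4ra, of the IL-4 receptor, rose from 7.50 and 7.28 to 10.02 and 10.50 FPKM (0.51, edgeR adjusted p = 1.70e-05), and Ifnar2, of the type I interferon receptor, rose from 79.31 and 74.57 to 96.94 and 96.37 FPKM (0.37). Ifngr1, of the interferon gamma receptor, had 31.66 and 32.79 FPKM with DMSO and 26.82 and 24.46 with risperidone (-0.23, edgeR adjusted p = 0.0129). The count of these receptors that fell was 2 without DMSO library 1 and 3 without DMSO library 2.

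Of 8 other JAK and STAT genes, 7 were tested, of which none rose and 6 fell, with a median of -0.48. Stat5a and Stat5b, which growth hormone and prolactin receptors use, each had a log2 fold change of -0.48, but their close similarity lets reads be split between them. Stat6, which serves the IL-4 receptor, had 42.11 and 42.02 FPKM with DMSO and 30.02 and 32.88 with risperidone (-0.32, edgeR adjusted p = 0.000238), and Jak3 fell by 0.54 on the log2 scale. Stat3, at -0.40, thus lay between Stat6 and the Stat5 pair. Tyk2, the remaining Janus kinase, had 6.42 and 6.88 FPKM with DMSO and 6.67 and 5.97 with risperidone and was not called.

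Of 14 other feedback inhibitors and phosphatases, 13 were tested, of which none rose, 6 fell and 7 were not called, with a median of -0.30. Socs2, an inhibitor of growth hormone signalling, fell from 8.02 and 7.74 to 4.48 and 4.82 FPKM (-0.55, edgeR adjusted p = 0.00131). Socs7 fell from 8.58 and 8.80 to 5.88 and 5.94 FPKM (-0.47), Pias3, an inhibitor of STAT3, fell by 0.32 on the log2 scale, and Ptpn1, a phosphatase of Janus kinases and the insulin receptor, by 0.35. On the TPM scale 11 of these genes were called lower. In the SHP2 branch of 8 adaptors, 1 rose, 3 fell and 4 were not called. Shc1 fell from 89.15 and 90.75 to 60.03 and 62.68 FPKM (-0.48, edgeR adjusted p = 5.91e-06), and the phosphoinositide 3-kinase subunits Pik3ca and Pik3r1 had log2 fold changes of -0.40 and -0.33. Gab2, a docking protein of SHP2, rose from 6.55 and 6.39 to 8.15 and 8.38 FPKM (0.45, edgeR adjusted p = 6.08e-05), a call not made on the TPM scale, where it was 0.20 (limma adjusted p = 0.0711). The number of adaptors called higher was 3 with the gene length offset and 0 on the TPM scale. The number called lower was 4 with the gene length offset and 5 on the TPM scale.

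The other Pim kinases moved in opposite directions. Pim3 had 46.29 and 47.90 FPKM with DMSO and 109.88 and 92.46 with risperidone, so that, as for Pim1, both treated libraries were higher and library 1 was the higher of them. Its log2 fold change was 1.20 (SE 0.0748, edgeR adjusted p = 2.83e-07). Pim2 had 8.84 and 9.21 FPKM with DMSO and 5.83 and 6.37 with risperidone, a log2 fold change of -0.47 (SE 0.113, edgeR adjusted p = 0.00394).

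Of 22 genes known as STAT3 targets, 19 were tested, of which 7 rose, 9 fell and 3 were not called, with a median of -0.20. Those that fell with the largest change encode secreted proteins of the acute phase response. Saa3, serum amyloid A3, had 917.32 and 1033.21 FPKM with DMSO and 148.49 and 138.13 with risperidone (log2 fold change -2.66, edgeR adjusted p = 2.84e-09). Hp, haptoglobin, had 80.47 and 92.01 against 28.45 and 26.40 FPKM (-1.55, edgeR adjusted p = 8.93e-08). Lcn2, the iron-carrier binding lipocalin, had 3505.52 and 3654.51 against 1155.83 and 1244.59 FPKM (-1.47, edgeR adjusted p = 1.13e-08). For each of the 3 genes both treated libraries lay far below both controls. Saa1 and Saa2 had log2 fold changes of -1.59 and -3.03 on few counts, at most 78 in any library, and are near-identical copies.

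Other STAT3 targets rose, and 5 of those and 1 that fell were named after their values were seen. Myc, a growth-promoting transcription factor, had 6.07 and 6.23 FPKM with DMSO and 17.85 and 14.00 with risperidone (log2 fold change 1.47, edgeR adjusted p = 1.18e-06). Bcl2l1, an inhibitor of apoptosis, had 65.56 and 64.52 against 138.10 and 127.42 FPKM (1.08, edgeR adjusted p = 7.79e-08). Junb, a subunit of AP-1, had 21.24 and 19.99 against 35.14 and 26.15 FPKM (0.67, edgeR adjusted p = 0.000420). As for Pim1, risperidone library 1 was the higher of the treated pair for Myc, Bcl2l1 and Junb. Ccnd1, cyclin D1, had 9.15 and 8.52 against 11.77 and 13.26 FPKM, with library 2 the higher of the treated pair (0.60, edgeR adjusted p = 2.43e-05). Bcl6, a transcriptional repressor, had a log2 fold change of 0.30 (edgeR adjusted p = 0.00116) and was not called on the TPM scale. Irf1, a transcription factor of interferon responses, had 17.80 and 18.19 against 7.82 and 9.02 FPKM and thus a 2.14-fold lower mean with risperidone (edgeR adjusted p = 1.26e-06).

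**Figure D5:**
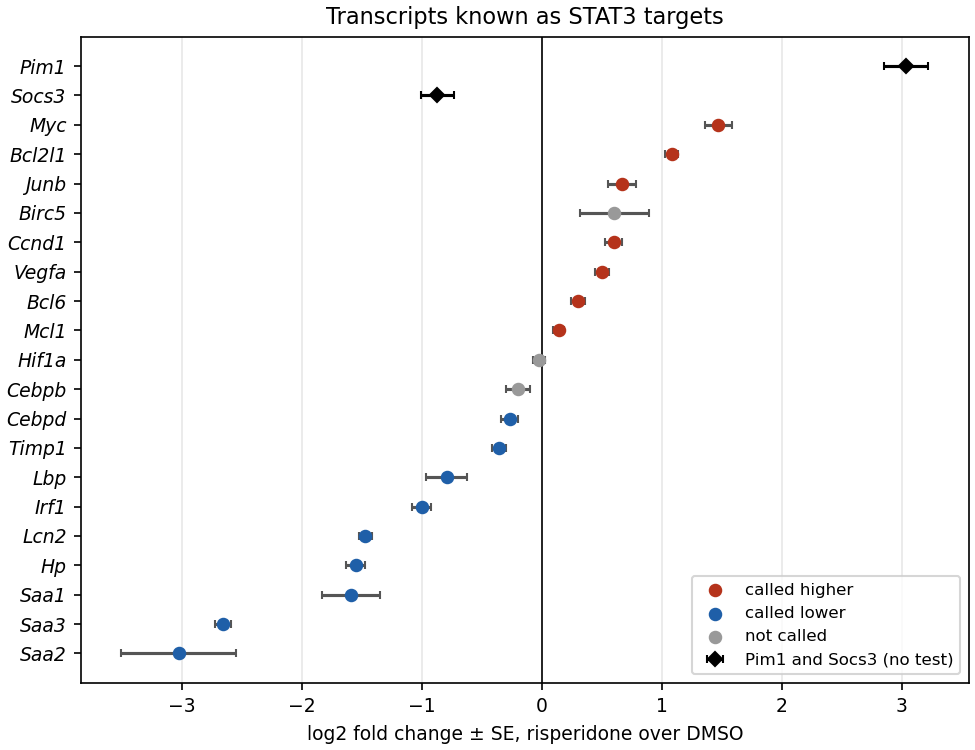
log2 fold change (risperidone against DMSO, horizontal axis) of the tested STAT3 target genes from edgeR, with SE bars, red for genes called higher, blue for lower and grey for not called, and black diamonds for Pim1 and Socs3. The list runs from Saa2 at -3.03 and Saa3 at -2.66 to Myc at 1.47, with Pim1 beyond it at 3.04.

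The palindrome TTCNNNGAA was found in the promoter windows of 3 of the 17 STAT3 targets with a window (17.6%), Bcl6, Icam1 and Irf1, against 7.98% of tested genes. It was also in 3 of 10 receptors of other JAK-coupled cytokines (30%), and nothing particular to STAT3 targets is read from the share. The match of Irf1, which fell, and 2 of the 4 matches of Bcl6, which rose, are shown with their flanks because the 2 genes lay on opposite sides of the control.
Irf1, chr11:53769914-53769942, plus strand: acagcctgatTTCCCCGAAatgatgaggc
Bcl6, chr16:23981433-23981461, minus strand: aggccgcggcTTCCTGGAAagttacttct
Bcl6, chr16:23981353-23981381, minus strand: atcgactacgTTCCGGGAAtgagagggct
The palindrome is capitalized in each, and each match is a description of the letters in the window, not a binding site.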

How the data were processed

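Differentiated 3T3-L1 cells were sequenced as 2 DMSO and 2 risperidone libraries (MGISEQ-2000), each from RNA pooled from 3 cultures. The deposited table has a row for each of 16051 genes, named by Gene ID and symbol. The expected counts, FPKM and TPM values were made by the authors from mapped reads and deposited, the counts without normalization by library size. The submitters' processing notes list Bowtie2, RSEM, DESeq2 and GRCm38.p6. Versions, strandedness of counting and the role of each tool are not given in the sources used here.

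With genes at 0 included and no tolerance, 91.2% to 91.7% of a library's counts were whole numbers, and all were rounded. The 10243 genes that averaged 1 FPKM or more were fitted with edgeR 4.0.16 in R 4.3.3. TMM factors were 1.03 and 1.03 for DMSO and 0.963 and 0.973 for risperidone and the common BCV (spread between replicates) was 0.0468. Tests were quasi-likelihood F-tests, two-sided, with Benjamini-Hochberg adjustment over all genes tested and a threshold of 0.05. Between replicates, a chi-square of counts passed the 5% limit of counting error in 12.4% of genes with DMSO and 23.6% with risperidone. The edgeR, DESeq2, limma and gene length offset fits were also run on simulated counts. There 200 of 10243 genes were changed by 1 on the log2 scale. Of these, 95.5% to 97.5% were recovered, with 1 to 18 false calls. The simulation gave every gene the same spread and changed fewer genes than the 64.3% called here. It therefore does not measure the errors of these calls.

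The genes described and the pathway lists were chosen with earlier results of these data known. Named genes were all 10 members, both other Pim kinases, the tested ligands, up to 4 called genes with the largest change and the gene of highest FPKM in each other list, and the 3 nearest patterns to Pim1 and Osmr. That gave 39 list and member names, and Myc, Bcl2l1, Junb, Ccnd1, Bcl6 and Irf1 were named after their values were seen, as were Il6, Lif and Tyk2. A few genes that the rule names are not reported here. Alternatives were DESeq2 1.42.0, limma 3.58.1 on log2(FPKM + 1), log2(FPKM + 0.1) and log2(TPM + 1), other scalings and filters, an offset for the trend with gene length, replicate blocks and leaving out each library.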

Additional observations from a re-analysis of the deposited data

How the results depend on the processing

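Calls over all genes moved most with limma on log2(TPM + 1), which gave 1536 higher and 5292 lower, 22.5% of calls higher, and a median of all genes of -0.22. Of the 10 genes described, 1 was then called higher, since Il6st lost its call, and Jak2 was called lower. The share of calls that were higher was 37.9% with library size only and 37.8% with limma on log2(FPKM + 1), against 49.9% in the main fit. Jak2 turned from -0.026 to 0.067 with the gene length offset and ranged from -0.091 to 0.037 when 1 library was left out, the highest without risperidone library 2, and the cause was not tested. Leaving out 1 library gave 2666 to 3310 genes higher and 2725 to 3350 lower. Of 45 pathway calls, 39 to 45 were kept in each alternative and 0 changed direction. Socs3 was not tested at a minimum of 5 FPKM.

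The replicate numbers are shared between treatments but the labels tie them to nothing else. Deviations of equal numbers had r = -0.106 over 8052 genes. A replicate block gave 3292 genes higher and 3321 lower, and a block with crossed numbers, added after seeing the data, gave 3474 and 3519. Depth limited the ligands and receptors with counts near 0, and 2 pooled libraries per treatment limit every standard error.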
